A study of Homo sapiens with 6 samples.

Results

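Transcripts of 9 genes of cytosolic DNA sensing were measured in CFPAC1, an established human pancreatic ductal adenocarcinoma cell line, by sequencing of poly(A)-selected RNA. The genes are CGAS, STING1, IFI16, AIM2, ZBP1, TREX1, SAMHD1, TBK1 and IKBKE, chosen by name for their role in the pathway and making up 9 of the 19402 genes in the table. Of the 6 libraries, 3 came from pools of clones grown after infection with the plasmid that the labels spell lentiCRIPSv2, carrying wild-type Cas9 and a guide RNA against IRF1 (labelled IRF1-KO). The other 3 came from pools of clones (WT) obtained after infection with that plasmid, for which the labels name no guide. All pools were cultured in IMDM with fetal bovine serum, and their labels name no interferon treatment. The number of clones per pool is not given, and a pool of clones does not represent the whole parental line.

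Cells treat DNA in the cytosol as a sign of infection or damage. cGAS, the product of CGAS, binds double-stranded DNA and makes the messenger cyclic GMP-AMP, which activates the membrane adaptor STING. STING then brings the kinase TBK1, and the related kinase encoded by IKBKE, to the transcription factor IRF3, which switches on interferon and other antiviral genes. IFI16 and AIM2 are DNA-binding proteins of the PYHIN family, and AIM2 assembles an inflammasome that activates caspase-1. ZBP1 recognises nucleic acids in the left-handed Z form, TREX1 is an exonuclease that degrades cytosolic DNA, and SAMHD1 hydrolyses deoxynucleotide triphosphates. Several of these genes are themselves induced by interferon, and IRF1 is a transcription factor of that response. The comparison asked how the transcripts of this pathway differed between pools labelled IRF1-KO and WT pools.

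Total counts lay between 16413682 and 28258075 per library. IRF1 itself had 117, 123 and 132 CPM (the count relative to the library total, scaled by TMM factors) in the libraries labelled IRF1-KO and 87.3, 91.3 and 82.6 CPM in WT libraries. Every library labelled IRF1-KO thus had more of the targeted transcript than any WT library (log2 fold change 0.51 ± 0.10, SE), short of the threshold with edgeR (quasi-likelihood adjusted p = 0.135) and past it with DESeq2 (adjusted p = 0.00176). Counts over all exons do not check a small insertion or deletion, so every direction given is that of libraries labelled IRF1-KO. Of 13388 genes tested, 17 (0.127%) were past an adjusted p of 0.05, 15 (0.112%) of them lower. Of 10 ductal epithelial markers on a marker list, 0 were below 0.5 CPM in every library, although CFTR was too low to test. Their sum lay between 5048 and 6960 CPM in IRF1-KO and between 4440 and 7582 CPM in WT libraries. Of 13 leukocyte markers, 9, among them PTPRC and CD3E, were below 0.5 CPM in every library, and the summed list, mostly CD68, was between 144 and 180.2 CPM in IRF1-KO and between 170.1 and 213 CPM in WT libraries. Summed fibroblast markers (8 genes, 3 below 0.5 CPM throughout) lay between 39.1 and 77.4 CPM in IRF1-KO and between 33.1 and 50.6 CPM in WT, and endothelial ones (6 genes, 4 below 0.5 CPM) between 7.16 and 8.35 CPM in IRF1-KO and between 5.36 and 7.40 CPM in WT. Their part in the results was not tested.

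None of the DNA sensing genes was past the threshold, which most 1.5-fold changes in genes above 5 CPM also missed with edgeR in simulated counts. AIM2, ZBP1 and TREX1 lie below that level, so the simulation does not cover them. With edgeR 7 of the 9 were tested and 0 were called, 2 of them (IFI16 and TBK1) had an unadjusted p under 0.05, and DESeq2 and limma-voom also called 0. Of all tested genes, 3.75% were lower and 5.39% higher with an unadjusted p under 0.05. All 7 tested members had negative log2 fold changes, with a median of −0.51, whereas over all tested genes 53.3% were negative with a median of −0.02. Values for single genes ran from −0.22 for CGAS to −1.38 for AIM2. TBK1 alone of the 7 had no overlap between groups, lower in IRF1-KO, which was also so for 6.75% of all tested genes, while 8.03% were apart and higher in IRF1-KO. The 2 members not tested were ZBP1, whose counts were too low, and TREX1, which had no counts.

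Transcript GC content of the 7 tested members lay between 39.3% and 58.7%, around the median of 48.5% over tested genes. GC-rich transcripts were relatively more abundant in the IRF1-KO libraries. The 477 tested genes over 65% GC deviated from their own means by a median of 0.10, 0.46 and 0.31 log2 CPM in IRF1-KO replicates 1 to 3 and by −0.59, −0.13 and −0.10 in WT replicates 1 to 3. With GC content fitted as an offset, the median log2 fold change of the 7 members was −0.46.

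**Figure D1:**
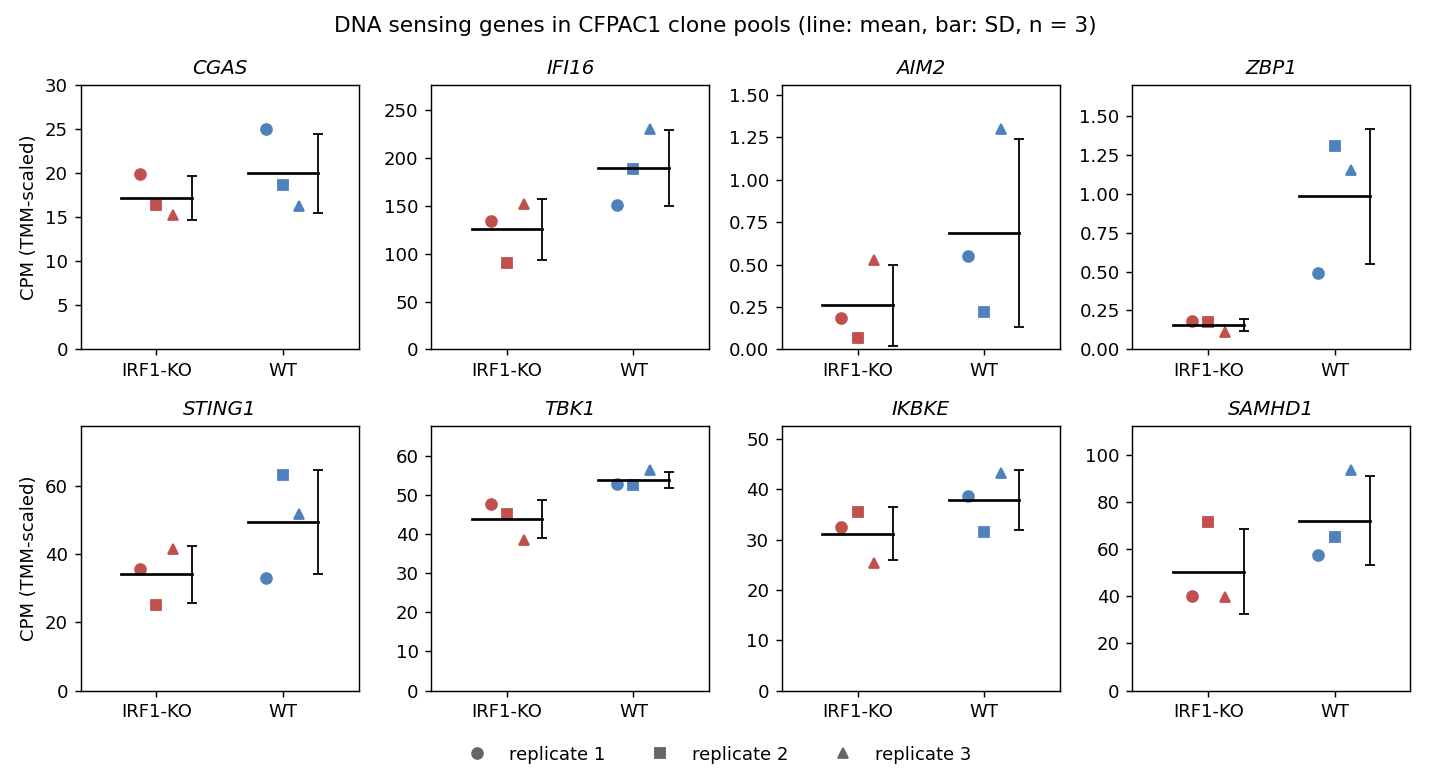
TMM-scaled CPM (y axis, linear from 0, its own range in each panel) of 8 genes in the 3 libraries labelled IRF1-KO and the 3 WT libraries; symbols mark the replicate number, the line is the mean and the bar the SD. The groups are apart for TBK1, at 38.4 to 47.7 against 52.6 to 56.2 CPM, and for the sparsely counted ZBP1, and overlap for the other 6 genes.

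The sensors differed widely in level. On a scale corrected for both gene length and library size (TPM), IFI16 stood highest, with a lowest value of 65.2, a median of 108 and a highest value of 164.5 TPM over the 6 libraries, above 92.2% of all genes in the table. IFI16 did not overlap the next gene in any library. IKBKE (25.7 to 43.2 TPM), STING1 (20.0 to 51.1 TPM) and TBK1 (23.2 to 33.3 TPM) followed with overlapping ranges. On this scale, which uses merged exon lengths, IKBKE was above TBK1 in all 6 libraries, though barely in WT replicate 2. The place of STING1 among them is not resolved. SAMHD1 (13.6 to 31.4 TPM) and CGAS (14.1 to 22.1 TPM) also overlapped. IKBKE exceeded STING1 in 4 of 6 libraries, STING1 exceeded TBK1 in 3 of 6, and SAMHD1 exceeded CGAS in 3 of 6. Below these came AIM2, with a median of 0.764 TPM, and ZBP1, with a median of 0.234 TPM, whose ranges overlapped each other and lay apart from CGAS. The sensor cGAS and its adaptor STING were therefore both transcribed in these cells, with the DNA-binding protein IFI16 the most abundant of the 8 genes with counts.

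**Figure D2:**
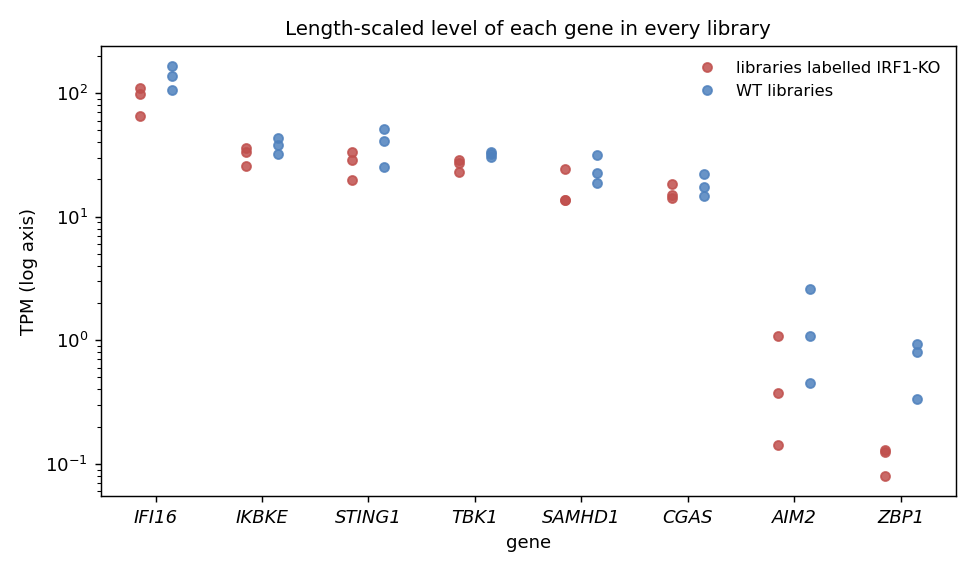
TPM on a log axis (y) of 8 DNA sensing genes (x), ordered by mean level, with 1 point per library, red for libraries labelled IRF1-KO and blue for WT. IFI16 is highest, 5 genes lie between 13.6 and 51.1 TPM, and AIM2 and ZBP1 are below 2.62 TPM; TREX1, with a count of 0 in each library, has no place on a log axis.

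Among the sensors, CGAS (ENSG00000164430.16; GRCh38 chromosome 6, 73413515 to 73452297, minus strand) was close between groups. It had 19.9, 16.4 and 15.2 CPM in IRF1-KO replicates 1 to 3 and 25, 18.7 and 16.3 CPM in WT replicates 1 to 3. The groups overlapped, and the highest value was that of WT replicate 1. The group means were 17.2 ± 2.45 CPM in IRF1-KO and 20.0 ± 4.5 CPM in WT (SD, n = 3 each). This is a log2 fold change of −0.22 ± 0.20 (SE), with a 95% interval from −0.68 to 0.24, and −0.01 without WT replicate 1. Its exons share 180 of 4174 bases with DDX43 on the opposite strand, so reads in that stretch could belong to either gene.

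IFI16 (ENSG00000163565.18; GRCh38 chromosome 1, 158999968 to 159055155, plus strand) gave the smallest p of the 7 tested members. It had 134, 90.1 and 152 CPM in the libraries labelled IRF1-KO and 151, 188 and 230.3 CPM in WT libraries. Only IRF1-KO replicate 3 reached into the WT range, lying just above WT replicate 1. The means were 125 ± 31.8 CPM in IRF1-KO and 189.8 ± 39.8 CPM in WT (SD, n = 3 each), and the fitted level was 1.52-fold lower in IRF1-KO (log2 fold change −0.60 ± 0.23, SE; 95% interval −1.13 to −0.07). The adjusted p by the quasi-likelihood test of edgeR was 0.472, short of the threshold, and over 15 alternative fits the adjusted p lay between 0.225 and 0.814.

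AIM2 (ENSG00000163568.15; chromosome 1, 159062484 to 159147096, minus strand) lies next to IFI16, with 7.33 kb between the ends of the 2 genes. PYHIN1 and MNDA, the other PYHIN genes of this locus, had 1 count each over all 6 libraries, so the family was represented almost wholly by IFI16. AIM2 had 3, 2 and 14 counts in IRF1-KO replicates 1 to 3 and 10, 4 and 27 counts in WT replicates 1 to 3. These are 0.183, 0.0698 and 0.524 CPM in IRF1-KO and 0.547, 0.218 and 1.30 CPM in WT, and the groups overlapped. Replicate 3 was the highest in each group. The log2 fold change was −1.38 ± 0.84 (SE), with an interval from −3.34 to 0.57 that leaves its size and direction undetermined at this depth. Without IRF1-KO replicate 3 the gene passed the count filter only through WT libraries. The AIM2 values with a library left out are therefore not used here.

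Promoter windows (250 bases before to 50 after a start site) from RefSeq for GRCh38.p14 were found for 6 members, with 7 windows in all. They were searched on both strands for the core of the interferon-stimulated response element, to which IRF proteins bind (GAAA, any 2 bases, then GAAA again). The motif occurred in 1 of the 7 windows, that of AIM2, and in 3.57% of all 35116 windows. The windows of IFI16, IKBKE, TREX1, TBK1 and SAMHD1 held none. The stretches printed are those of AIM2, the member with a match, of TBK1, the tested member whose groups were apart, and of IFIT3, an interferon-stimulated gene of the pathway lists with the lowest p among STING outputs. Each is written 5′ to 3′ on the gene's strand, with bases of the motif (read here on the opposite strand) in capitals. They cover chr1:159076887-159076986 (minus strand), chr12:64451900-64451999 (plus strand) and chr10:89327817-89327916 (plus strand). A match describes letters in a window and not a site.
AIM2: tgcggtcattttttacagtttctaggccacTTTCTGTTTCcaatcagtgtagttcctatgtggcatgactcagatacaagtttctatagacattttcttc
TBK1: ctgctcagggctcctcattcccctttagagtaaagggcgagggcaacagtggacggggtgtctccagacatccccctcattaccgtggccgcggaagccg
IFIT3: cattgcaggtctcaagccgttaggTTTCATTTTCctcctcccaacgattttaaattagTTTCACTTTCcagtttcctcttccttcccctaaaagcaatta
The AIM2 stretch holds 1 match, which begins 190 bases before the start site, the IFIT3 stretch holds 2, and the TBK1 stretch holds none.

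ZBP1 (ENSG00000124256.15; GRCh38 chromosome 20, 57603846 to 57620576, minus strand) had the largest difference in proportion of the 8 genes with counts. It had 3, 5 and 3 counts in IRF1-KO replicates 1 to 3 and 9, 24 and 24 counts in WT replicates 1 to 3, or 11 against 57 in sum. Every IRF1-KO library was below every WT library in CPM, at 0.112 to 0.183 CPM in IRF1-KO and 0.493 to 1.30 CPM in WT. The exact Poisson 95% interval of a count of 5 in IRF1-KO replicate 2 is 1.62 to 11.7 and that of a count of 9 in WT replicate 1 is 4.12 to 17.1. These intervals overlap, but they are of counts not scaled to library size. The TMM-scaled sizes of the 2 libraries were 28648020 and 18273251, so the overlap is not one of levels. Such counts fell below the filter of the main test, and ZBP1 was fitted only in alternatives. Without a filter on low counts the log2 fold change was −2.62 ± 0.58 (SE), with a quasi-likelihood adjusted p of 0.149 in edgeR. The DESeq2 estimate was −2.66 with an adjusted p of 0.0579, also short of the threshold. The gene entered 5 further fits, each with a library left out, only through its counts in WT libraries, so their values are not independent of the difference and are not used here.

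STING1 (ENSG00000184584.13; GRCh38 chromosome 5, 139475533 to 139482935, minus strand), the adaptor, varied among pools of the same group. Its values were 35.7, 25 and 41.6 CPM in IRF1-KO libraries and 33, 63.3 and 51.8 CPM in WT libraries. WT replicate 1 lay within the IRF1-KO range, and the other WT pools lay above it. The means were 34.1 ± 8.40 CPM in IRF1-KO and 49.3 ± 15.3 CPM in WT (SD, n = 3 each). The log2 fold change of −0.53 ± 0.27 (SE; 95% interval −1.17 to 0.10) became −0.73 without WT replicate 1 and −0.32 without WT replicate 2, and was past the threshold in neither (edgeR quasi-likelihood adjusted p = 0.636 with all libraries, 0.369 to 0.971 over the alternatives).

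The ratio of CGAS to STING1, both per base of merged exons and within a library, was 0.642, 0.752 and 0.421 in IRF1-KO replicates 1 to 3. It was 0.871, 0.340 and 0.362 in WT replicates 1 to 3. The groups overlapped, with both extremes among WT pools. The mean log2 ratio differed by 0.31 (IRF1-KO minus WT; exact permutation test, two-sided, p = 0.6, n = 3 each), and 0.1 is the smallest p that 3 against 3 allows. Without WT replicate 1 the difference was 0.75 and without WT replicate 2 it was 0.07.

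TBK1 (ENSG00000183735.10; GRCh38 chromosome 12, 64452092 to 64502114, plus strand) showed the smallest spread within groups. It had 47.7, 45.2 and 38.4 CPM in the libraries labelled IRF1-KO and 52.6, 52.6 and 56.2 CPM in WT libraries. The highest IRF1-KO library was below the lowest WT library. The means were 43.8 ± 4.83 CPM in IRF1-KO and 53.8 ± 2.09 CPM in WT (SD, n = 3 each), and the fitted level was 1.23-fold lower in IRF1-KO (log2 fold change −0.30 ± 0.12, SE; 95% interval −0.58 to −0.02). The adjusted p by the quasi-likelihood test of edgeR was 0.515. With the GC offset the log2 fold change was −0.25, and the unadjusted p of the edgeR quasi-likelihood test was 0.0742.

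IKBKE (ENSG00000263528.8; GRCh38 chromosome 1, 206470476 to 206496889, plus strand) encodes the kinase most closely related to TBK1, which is inducible in many cell types. It had 32.6, 35.5 and 25.3 CPM in IRF1-KO libraries and 38.8, 31.5 and 43.3 CPM in WT libraries. WT replicate 2 lay below 2 of the IRF1-KO libraries, so the groups overlapped. The log2 fold change was −0.28 ± 0.17 (SE), with a 95% interval from −0.69 to 0.12. Per base of merged exons (3791 for IKBKE, 6382 for TBK1), the IKBKE to TBK1 ratio was 1.15, 1.32 and 1.11 in IRF1-KO replicates 1 to 3. It was 1.24, 1.01 and 1.30 in WT replicates 1 to 3. In CPM, IKBKE was below TBK1 in all 6 libraries, so their order rests on the lengths used, which are not those of a transcript. The mean log2 ratio differed by 0.02 (IRF1-KO minus WT; exact permutation test, two-sided, p = 0.9, n = 3 each). It turned to −0.09 without WT replicate 2 and to −0.06 without IRF1-KO replicate 2.

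Of the enzymes that limit DNA and its precursors, SAMHD1 (ENSG00000101347.9; GRCh38 chromosome 20, 36889773 to 36951901, minus strand) was counted well. Its values were 40.1, 71.4 and 39.8 CPM in IRF1-KO libraries and 57.5, 65.1 and 93.3 CPM in WT libraries. IRF1-KO replicate 2 lay within the WT range, while the other IRF1-KO pools were below all WT pools. The means were 50.4 ± 18.2 CPM in IRF1-KO and 72.0 ± 18.9 CPM in WT (SD, n = 3 each). Its log2 fold change of −0.51 ± 0.28 (SE; 95% interval −1.17 to 0.14) became −0.85 without IRF1-KO replicate 2 and −0.26 without WT replicate 3, with adjusted p between 0.41 and 0.925 over the alternatives. SAMHD1 shares 1159 of its 11261 exon bases with TLDC2 on the opposite strand, a gene with 13 to 43 counts per library.

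TREX1 (ENSG00000213689.14; GRCh38 chromosome 3, 48465811 to 48467645, plus strand) had a count of 0 in all 6 libraries. All 1448 of its exon bases in the table also belong to exons of ATRIP on the same strand, so no base of TREX1 is its own. A count of 0 allows up to 3 counts, or 0.105 to 0.183 CPM depending on the library, but in this table that floor limits only reads assigned to TREX1 and not the level of its transcript. The ATRIP row held 217, 327 and 303 counts in IRF1-KO libraries and 225, 229 and 300 in WT libraries. Which share of these, or of reads left unassigned, came from TREX1 cannot be told apart here.

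**Figure D3:**
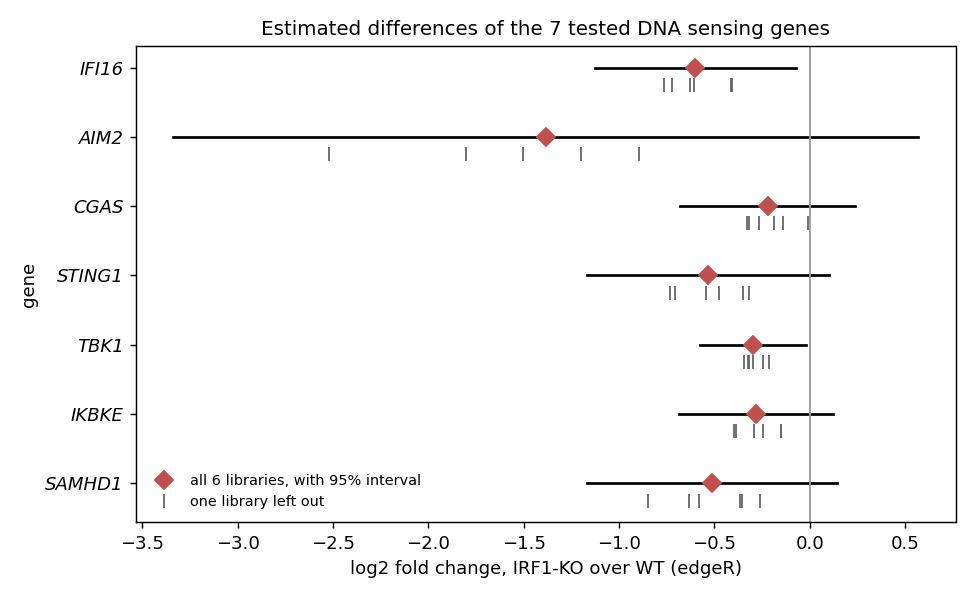
Log2 fold change of IRF1-KO over WT (x axis) for the 7 tested genes (y axis); diamonds are the fit on all 6 libraries with its 95% interval as a line, and ticks are fits with 1 library left out. Every diamond is below 0, from −0.22 for CGAS to −1.38 for AIM2. Only the intervals of IFI16 and TBK1 leave out 0, before any adjustment for the number of genes tested. The ticks of AIM2 are not used in the text.

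Pools of the same group differed from each other in ways that did not run alike for all members. IRF1-KO replicate 2 was the lowest of its group for IFI16, STING1 and AIM2 and the highest for SAMHD1 and IKBKE. The within-group SD of log2 CPM was 0.43 for STING1 and 0.43 for SAMHD1, above that of 92.3% and 92.1% of the 9818 tested genes with a mean of at least 10 CPM. It was 0.35 for IFI16, 0.26 for CGAS and 0.24 for IKBKE. For TBK1 it was 0.12, above only 23.3% of those genes, and the groups were apart for TBK1 but not for STING1 and SAMHD1, whose log2 fold changes were larger.

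The rest of the pathway was followed in 5 lists with 105 distinct genes, 89 of them tested. None was past the threshold with edgeR. With an unadjusted p under 0.05 there were 11 lower and 4 higher genes among the 89, beside 3.75% lower and 5.39% higher of all tested genes. The same shares stand beside the counts at this p given for each list below. Calls by limma-voom numbered 0 and by DESeq2 8, beside 2.41% called by DESeq2 over all genes. Their median log2 fold change was −0.01, near that of all tested genes. The lowest values were those of CASP1, IFIT3, IFIT2 and IFIT1, and the other sensors were close to 0. Not all interferon-stimulated genes of the lists were as low.

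In the list of STING signalling partners all 33 genes were tested, with a median of 0.00, 16 negative and 17 positive. None was called by edgeR, 4 lower and 3 higher genes had an unadjusted p under 0.05, and calls by DESeq2 were TRIM56, USP18, ULK1 and SLC19A1. TRIM56, a ubiquitin ligase that acts on STING and cGAS, had 42.3, 45.4 and 54.2 CPM in IRF1-KO libraries and 64.8, 75.1 and 79.3 CPM in WT libraries, with no overlap (log2 fold change −0.63 ± 0.14, SE). USP18, an interferon-induced protease that removes ISG15, had 5.91, 8.73 and 4.53 CPM in IRF1-KO libraries and 10.7, 16.6 and 17.7 CPM in WT libraries (−1.23 ± 0.30). Higher values were seen for ULK1, an autophagy kinase that phosphorylates STING (0.94 ± 0.25), and SLC19A1, a folate carrier that also imports cyclic dinucleotides (0.77 ± 0.20). Their transcripts are 64.2% and 64.4% GC, and with the GC offset the values were 0.64 and 0.44. IRF3, the transcription factor that TBK1 phosphorylates, had 33, 41.0 and 36.5 CPM in IRF1-KO libraries and 31.4, 35.4 and 29.9 CPM in WT libraries, which overlapped (0.19 ± 0.13).

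Of 25 other nucleic acid sensors, 22 were tested and had the narrowest range of the 5 lists, from −0.23 to 0.29, with a median of −0.01. None was past an adjusted p of 0.05 with edgeR or DESeq2, and 0 were at an unadjusted p under 0.05. The member with the smallest p was POLR3K, a subunit of RNA polymerase III, an enzyme that can transcribe AT-rich cytosolic DNA, at 0.29 ± 0.14 (SE). Its catalytic subunit POLR3A was at −0.23 ± 0.14, POLR3E at 0.13 ± 0.12, and LRRFIP1, a nucleic acid-binding protein, at −0.20 ± 0.13. TLR9, the endosomal DNA receptor, was too low to test.

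Nucleases and other genes that keep self nucleic acids in check had a median of 0.03 over 16 tested of 21 genes, with 7 negative and 9 positive. None was called by edgeR, 2 lower genes and 1 higher had an unadjusted p under 0.05, and the call by DESeq2 was ADAR. ADAR, which edits double-stranded RNA and binds Z-form nucleic acid as ZBP1 does, had 379, 334 and 328 CPM in IRF1-KO libraries and 499, 550.4 and 540.1 CPM in WT libraries. The groups were apart, and the log2 fold change was −0.61 ± 0.11 (SE), with an adjusted p of 0.12 by the quasi-likelihood test of edgeR and of 6.33e-05 by DESeq2. RNASET2, a lysosomal ribonuclease, was at −0.81 ± 0.28, and SMARCAL1, which remodels stalled replication forks, at −0.23 ± 0.17. PLD3, a lysosomal exonuclease with a 63.4% GC transcript, was at 0.40 ± 0.16, and at 0.14 with the GC offset.

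The list of inflammasome and cell death effectors, which also holds ADAR, had 13 tested genes of 14, with a median of −0.13, 10 of them negative. None was called by edgeR, 3 lower genes had an unadjusted p under 0.05, and calls by DESeq2 were CASP1 and ADAR. CASP1, the protease that inflammasomes activate, had 0.366, 0.524 and 0.187 CPM in IRF1-KO libraries and 2.96, 3.75 and 5.82 CPM in WT libraries. No IRF1-KO library came near a WT library, and the fitted level was 11.4-fold lower (log2 fold change −3.52 ± 0.48, SE). The edgeR adjusted p of 0.0555 was just short of the threshold, and it was 4.08e-08 with DESeq2 and 0.0281 without a filter. Without WT replicate 3 CASP1 passed the count filter only through WT libraries, so that fit is not used here. PYCARD, the adaptor between AIM2 and caspase-1, had 5.97, 6.11 and 7.79 CPM in IRF1-KO libraries and 6.79, 5.38 and 4.09 CPM in WT libraries, with overlap (0.29 ± 0.25). RIPK3, the kinase through which ZBP1 triggers necroptosis, was at −0.74 ± 0.41, and CFLAR, an inhibitor of caspase-8, at −0.51 ± 0.16.

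Of 13 interferon genes and early STING outputs, 6 had enough counts to be tested, with a median of −1.21 and 5 negative values. IFNB1, the interferon that STING signalling induces, had 0, 2 and 0 counts in IRF1-KO libraries and 2, 0 and 1 in WT libraries, which is at or below the floor of 3 counts in every library. None of the 6 was called by edgeR, 3 lower genes had an unadjusted p under 0.05, and calls by DESeq2 were IFIT2 and IFIT3. IFIT3, an interferon-stimulated antiviral gene, had 25.4, 39.8 and 27.2 CPM in IRF1-KO libraries and 87.6, 170.8 and 172 CPM in WT libraries, with a log2 fold change of −2.22 ± 0.30 (SE) and an adjusted p of 0.0663 by the quasi-likelihood test of edgeR. The related IFIT2 was at −1.66 ± 0.39, with groups apart, and IFIT1 at −1.42 ± 0.54, with overlap. ISG15, the remaining gene of the 6, was at −0.54 ± 0.65, also with overlap. IL6, a cytokine, was at −1.0 ± 0.56. CXCL10, a chemokine often used as a readout of STING activity, had 0.671, 1.64 and 0.449 CPM in IRF1-KO libraries and 0.438, 0.870 and 0.817 CPM in WT libraries, with overlap (0.39 ± 0.57).

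**Figure D4:**
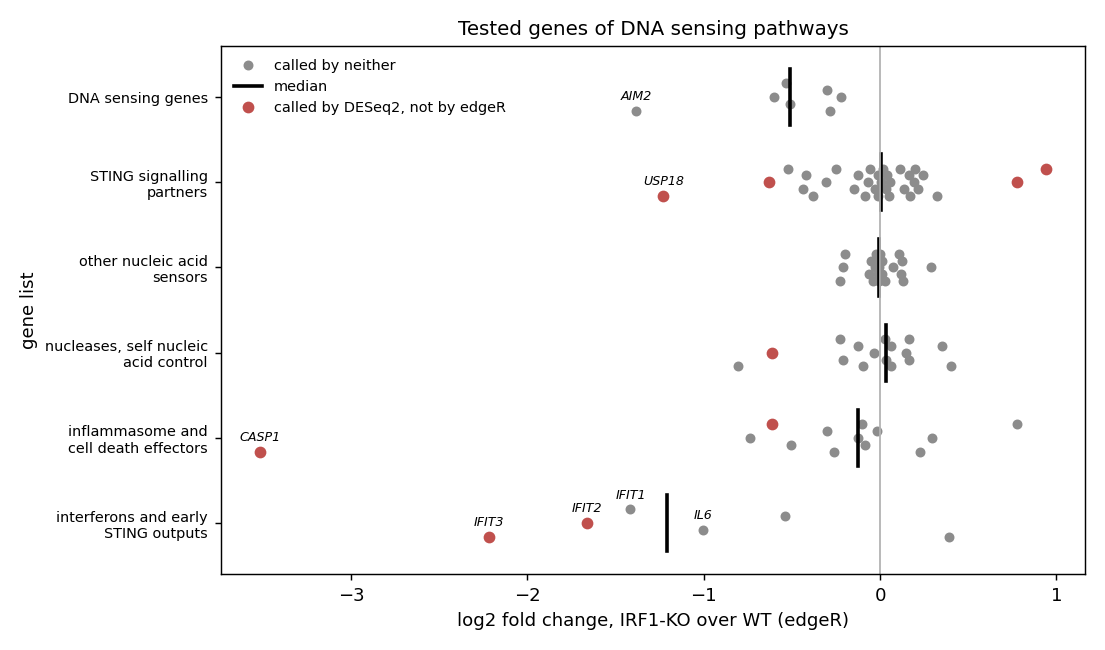
Log2 fold change of IRF1-KO over WT (x axis) for the tested DNA sensing genes and the tested genes of 5 pathway lists (rows; ADAR is in 2 lists); vertical bars are medians, and red points were called by DESeq2 but not by edgeR. The medians are −0.51 for the DNA sensing genes, within 0.13 of 0 for 4 lists, and −1.21 for interferons and early STING outputs.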

How the data were processed

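Whole-number counts per gene were deposited by the authors in 1 table with a column for each library. Its header has the layout of featureCounts, and the submitters' processing notes name featureCounts 0.6.1, edgeR 3.2.2 and GRCh38 (hg38). For the aligner, annotation and strand setting, which were not given in the sources used here, nothing is assumed, and reads of overlapping genes cannot be told apart. The labels do not say whether pools were grown separately, so the p-values reflect only how these pools varied, which may be technical.

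The deposited counts were fitted with edgeR 4.0.16 (R 4.3.3), using filterByExpr, TMM factors, robust dispersions and the quasi-likelihood F test, two-sided, with Benjamini-Hochberg adjustment over 13388 tested genes. Standard errors are those implied by the F statistic. TPM used the gene lengths of the table. The procedure was tested on simulated counts, with 50 genes changed at each fold. The changed genes were drawn from those with a mean above 5 CPM, and the simulated counts held no GC trend. There edgeR recovered 16% of 1.5-fold, 60% of 2-fold and 98% of 4-fold changes, with 15 false calls. Settings tried beside these were upper-quartile or RLE factors, no filter, a filter of at least 5 CPM in 3 libraries, DESeq2 1.42.0, limma-voom (limma 3.58.1), a replicate block, an offset from a spline (5 degrees of freedom) on transcript GC content in GENCODE 29, both together, each library left out, and a threshold of 0.1.

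The members, the gene lists and the tests were chosen with earlier results of these data known. Named were all members, IRF1, up to 4 genes per list with the smallest p, and IRF3, PYCARD, IFNB1 and CXCL10 for their roles. ISG15 was added so that every tested output gene is given. In addition the 5 genes of at least 5 CPM were named whose log2 CPM correlated best with the tested member of smallest p. Intervals and floors of counts cover counting error only. A second promoter motif that was searched, and the name of 1 leukocyte marker, are not reported here.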

Additional observations from a re-analysis of the deposited data

How the results depend on the processing

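The call of 0 members held in all 15 alternative fits and at a threshold of 0.1. All 103 refits of the 7 tested members that gave a value were negative and short of the threshold. They reuse the same 6 libraries and include the AIM2 fits set aside above, so their shared sign is not separate evidence. CGAS without WT replicate 1 was at −0.01 ± 0.18 (SE). ZBP1, outside the main test, was nearest to the threshold with DESeq2 (adjusted p = 0.0579). Over all genes, the 17 calls became 31 without a filter, 344 with DESeq2 (131 lower and 213 higher), 31 with the replicate block, 11 with the block and GC correction together, and 46 at a threshold of 0.1. With a library left out they ranged from 3 (IRF1-KO replicate 1 or 3) through 5 (WT replicate 2) to 91 (WT replicate 3). In the pathway lists the 0 calls became 1 without a filter (CASP1), 8 with DESeq2, 1 with the replicate block (IFIT3) and 2 at a threshold of 0.1, and ranged from 0 to 3 with a library left out. The 3 calls, without WT replicate 3, include the CASP1 fit set aside above. The IKBKE to TBK1 difference ranged from −0.0895 to 0.0920 with a library left out and was reversed without WT replicate 2 (−0.0895) and IRF1-KO replicate 2 (−0.0553). CXCL10 ranged from −0.36, reversed without IRF1-KO replicate 2, to 0.727. The causes were not tested. Replicates with the same number did not deviate together in all pairs (correlations of −0.015, 0.253 and 0.057), so the block rests on a shared number only; under it the members' median was −0.51. Depth limits AIM2 and ZBP1, whose counts were at most 27 per library, and the overlap with ATRIP limits TREX1.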

Other observations

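The genes whose profile over the 6 libraries was most like that of IFI16, among 10996 genes with a mean of at least 5 CPM, were LTN1, CTSO, ESYT2, ZNF655 and RSBN1L. Pearson's r of log2 CPM was 0.998, 0.993, 0.985, 0.984 and 0.983, given as a description over 6 libraries that share the group difference, library size and base composition. LTN1, a ubiquitin ligase of ribosome quality control, had 82.1, 75.2 and 85.1 CPM in IRF1-KO libraries and 83.8, 88.2 and 92.5 CPM in WT libraries, so it followed IFI16 in order but over a much narrower range. CTSO, a cysteine protease, had 15.4, 10.2 and 19.7 CPM in IRF1-KO libraries and 20.2, 26.0 and 30.8 CPM in WT libraries, with a log2 fold change of −0.77 ± 0.26 (SE). None of the 5 was past the threshold (adjusted p between 0.398 and 0.794 by the quasi-likelihood test of edgeR). Among the other members the same measure was 0.88 for STING1, 0.81 for AIM2, 0.53 for TBK1, 0.30 for SAMHD1, 0.22 for IKBKE and 0.01 for CGAS. STING1 and AIM2 thus shared with IFI16 the low value of IRF1-KO replicate 2, and CGAS did not follow it.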
